A study of Homo sapiens with 8 samples.

Results

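Transcripts of 6 matrix metalloproteinases (MMP1, MMP2, MMP3, MMP10, MMP14 and MMP15) and of 3 tissue inhibitors of metalloproteinases (TIMP1, TIMP2 and TIMP3) were followed in EA.hy926 cells that had lost an enhancer region. These 9 genes were taken by symbol from the 27946 genes of the deposited table, with the transcript of the highest mean level kept for each gene. EA.hy926 is an established hybrid line, obtained by fusion of umbilical vein endothelium with a lung carcinoma line. With CRISPR/Cas9, the study removed from these cells either E2, an active enhancer of the endothelial super-enhancer SE12313 on chromosome 16, or SE12313-b, a region of the same super-enhancer without enhancer activity in reporter assays. Each deletion (ΔE2 and ΔSE12313-b) was sequenced in 3 libraries, which the labels number as replicates. The paper sequenced 3 clonal lines per deletion, so these libraries are called clones here, under their replicate numbers. Another 2 libraries came from EA.hy926 control cells that keep both regions. The labels name no further treatment, and all groups share the growth medium. In its proliferation assay, the paper's control line had been given guide RNAs and was grown alongside the clones while these were being made. Whether the sequenced controls were handled alike is not stated. The deletion lines were grown from single cells, which the paper does not report for the controls. Clonal origin and deletion thus go together in every comparison with the controls, and their parts were not tested separately. Nothing in the labels says that both control libraries came from separate cultures, so the p values measure the spread between these libraries, which may be technical in the controls. The 2 control libraries serve both comparisons with a deletion, so these comparisons are not independent of each other.

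MMPs are zinc-dependent endopeptidases that cut collagens and other proteins of the extracellular matrix, and most of them are secreted as inactive precursors. MMP1 is the interstitial collagenase, MMP3 and MMP10 are the stromelysins, MMP2 is a gelatinase that also cuts the type IV collagen of basement membranes, and MMP14 and MMP15 are anchored in the cell membrane. TIMPs bind the active site of MMPs, and TIMP2 in addition forms a complex with MMP14 that activates the precursor of MMP2. In endothelial cells these enzymes take part in the remodelling of basement membrane and matrix during sprouting, and TIMP3 is known to stay bound to the matrix.

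In GRCh37 (hg19), the build of the table, MMP10 (chr11:102641233-102651359), MMP1 (chr11:102660641-102668966) and MMP3 (chr11:102706528-102714420) sit side by side on the minus strand in 11q22.2. MMP2 (chr16:55513910-55540603, 16q12.2) and MMP15 (chr16:58059470-58080804, 16q21) are on the chromosome of the deletions, but 21.8 Mb and 19.2 Mb away from ADAMTS18, the gene contacted by the super-enhancer. MMP14 lies at chr14:23305742-23316808 (14q11.2), TIMP1 at chrX:47441690-47446190 (Xp11.3), TIMP2 at chr17:76849059-76921472 (17q25.3) and TIMP3 at chr22:33196802-33259028 (22q12.3). The 250 bases before the start of transcription are given for MMP10 and MMP14, which fell in both deletions, and for TIMP3, which rose in ΔE2. They were taken from RefSeq (GRCh38.p14), which gave windows for 5 of the 9 genes, and run 5′ to 3′ on the strand of the gene, at chr11:102780629-102780878 (minus strand), chr14:22836335-22836584 (plus strand) and chr22:32801455-32801704 (plus strand). Capitals mark matches to TGANTCA, a loose form of the site of AP-1 factors in which N is any base, and to TATAAA, the TATA box. Both were searched on both strands, and TGANTCA also covers TGAGTCA.
MMP10: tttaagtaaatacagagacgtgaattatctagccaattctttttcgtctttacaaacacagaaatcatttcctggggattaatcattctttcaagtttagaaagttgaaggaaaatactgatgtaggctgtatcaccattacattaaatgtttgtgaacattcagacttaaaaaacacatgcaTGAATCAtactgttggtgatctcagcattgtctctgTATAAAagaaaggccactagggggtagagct
MMP14: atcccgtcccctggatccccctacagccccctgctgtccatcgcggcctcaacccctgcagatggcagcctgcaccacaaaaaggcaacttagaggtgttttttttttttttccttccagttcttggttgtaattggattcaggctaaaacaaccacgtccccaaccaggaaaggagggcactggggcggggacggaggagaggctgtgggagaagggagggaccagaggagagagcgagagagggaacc
TIMP3: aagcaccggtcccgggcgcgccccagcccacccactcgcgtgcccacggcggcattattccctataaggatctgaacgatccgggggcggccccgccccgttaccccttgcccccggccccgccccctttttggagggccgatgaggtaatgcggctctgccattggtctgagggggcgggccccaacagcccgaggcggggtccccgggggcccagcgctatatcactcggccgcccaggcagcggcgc
The MMP10 window holds TGAATCA, but not TGAGTCA, from 67 to 61 bases before the start and TATAAA from 31 to 26 bases before it. TGAGTCA was found nowhere in that window. No match to these letters was found in the windows of MMP14, MMP15, TIMP1 and TIMP3. Of 35116 RefSeq promoters of the same length, 6.57% hold TGANTCA, 4.2% hold TGAGTCA and 10.7% hold TATAAA. The G+C content was 34.4% in the MMP10 window, 56.8% in that of MMP14 and 72.4% in that of TIMP3. These matches describe the sequence only, as binding was not measured in these libraries.

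Total RNA without ribosomal RNA was sequenced to between 12067553 and 19101120 reads per library. Levels are given in FPKM (fragments per kilobase of transcript, scaled to the reads of the library), so that genes can be compared with each other. The test covered the 13790 genes that reached 0.5 FPKM in 2 or more libraries, 8 of the 9 members among them. Genes are called DEGs (differentially expressed genes) where the adjusted p was under 0.05 (limma on log2(FPKM + 0.1), Benjamini-Hochberg over these genes) and the change 2-fold or larger. ADAMTS18 had 0.682 and 0.859 FPKM in the controls, 0.087 to 0.149 in ΔE2 and 0.128 to 0.232 in ΔSE12313-b. The controls were close to counting noise (chi-square per degree of freedom 1.18), while clones of the same deletion differed by 3.83 to 21.7. ΔE2 clone 2 and ΔSE12313-b clone 3 stood apart from the other clones of their deletion, as all 4 pairs with either of them had values of at least 15.4. The median log2 fold change of all genes was 0.14 in ΔE2 and 0.27 in ΔSE12313-b, so changes are also given relative to that median.

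The controls expressed defining endothelial genes, with 102 and 103 FPKM of CDH5 and 55.3 and 56.8 FPKM of TIE1, but CLDN5 was at 0 in all 8 libraries and KDR stayed under 0.3 FPKM. The summed level of 10 endothelial markers was 209 to 210 FPKM in the controls, 198 to 332 in ΔE2 and 189 to 259 in ΔSE12313-b. Of the 8 that were tested, PECAM1 and ERG rose and VWF fell in both deletions, while ESAM rose and EMCN fell in ΔE2. EMCN passed the filter through the ΔSE12313-b clones only (0.671 to 1.58 FPKM), where it was higher (1.35, adjusted p 0.0656, limma with Benjamini-Hochberg). It had 0.333 and 0.371 FPKM in the controls and at most 0.16 in ΔE2. Under 2-fold in ΔE2, TEK was higher (0.94, adjusted p 0.0188) and TIE1 lower (-0.37, adjusted p 0.0149). Of 10 epithelial markers 4 were tested, and the 3 keratins KRT7, KRT8 and KRT18 rose in both deletions. They carry the sum of this list, which was 363 to 365 FPKM in the controls, 1087 to 1212 in ΔE2 and 813 to 1071 in ΔSE12313-b. The fourth, MUC1, had log2 fold changes of -0.05 and -0.17, EPCAM and CLDN4 were too low to test and lower in all clones than in the controls, and CDH1 was at 0 throughout. The fibroblast list summed to 3.48 to 3.75 FPKM in the controls, 11.3 to 16.7 in ΔE2 and 4.41 to 5.21 in ΔSE12313-b, with LUM, DCN and POSTN at 0 in all libraries. Its 2 tested genes were FAP, with 2.89 FPKM in both controls, 6.25 to 10.65 FPKM in ΔE2 and 4.29 to 4.89 FPKM in ΔSE12313-b, and THY1, with 0.421 and 0.724, 4.96 to 5.84 and 0 FPKM. The macrophage list summed to 28.6 to 30.4 FPKM in the controls, 25.1 to 27.4 in ΔE2 and 36.5 to 41.0 in ΔSE12313-b, with TYROBP at 0 throughout. Most of this sum was CD68, with 29.75 and 28.1 FPKM in the controls, 24.3 to 24.6 in ΔE2 and 35.9 to 40.4 in ΔSE12313-b. The other tested gene, LYZ, rose as a DEG in ΔE2 (log2 fold change 2.40, adjusted p 0.0132, limma with Benjamini-Hochberg) and had -0.29 in ΔSE12313-b. LYZ passed the filter through the ΔE2 clones only (0.693 to 2.67 FPKM). It had 0.313 and 0.11 FPKM in the controls and at most 0.224 in ΔSE12313-b. The part of these markers in the changes of MMPs and TIMPs was not tested. All libraries came from 1 cultured line, and within it fewer cells that express a gene cannot be told apart from less RNA per cell.

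In the control cells MMP1 was by far the most abundant of the 9 transcripts, with a mean of 1532 ± 21.7 FPKM (SD, n = 2), which ranked 11 among the 13790 genes tested. It was followed by TIMP1 with 201 ± 0.24 FPKM, MMP14 with 151 ± 2.93, TIMP2 with 66.1 ± 1.73, MMP2 with 41.6 ± 0.65, MMP10 with 18.5 ± 0.25 and TIMP3 with 9.56 ± 0.064. MMP15 was low (0.62 ± 0.090 FPKM, from 30 and 35 reads), and MMP3 (0.15 ± 0.035 FPKM, from 3 and 4 reads) was near the limit of detection. No neighbours in this order overlapped between the control libraries.

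In ΔE2, 4 of the 8 tested genes were DEGs: MMP1, MMP10 and MMP14 fell and TIMP3 rose. Of all genes tested 19.6% were DEGs in this comparison, 8.36% of them falling and 11.2% rising. In ΔSE12313-b the 3 DEGs were MMP1, MMP10 and MMP14, which all fell, against 22.6% DEGs among all genes (7.83% falling). Whatever the size of the change, 7 of the 8 genes had an adjusted p under 0.05 in ΔE2 and 5 of 8 in ΔSE12313-b, where all genes gave 54.1% and 59.4%. Clones and controls did not overlap for 7 of the 8 in either deletion, which held for 73.5% of all genes in ΔE2 and 75.3% in ΔSE12313-b. The median log2 fold change of the 8 genes was -0.66 in ΔE2 and -0.16 in ΔSE12313-b, where the medians of all genes were 0.14 and 0.27. These counts describe the 8 genes that passed the filter on low values, which MMP10 passed through both controls and ΔSE12313-b clone 3 only.

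**Figure D1:**
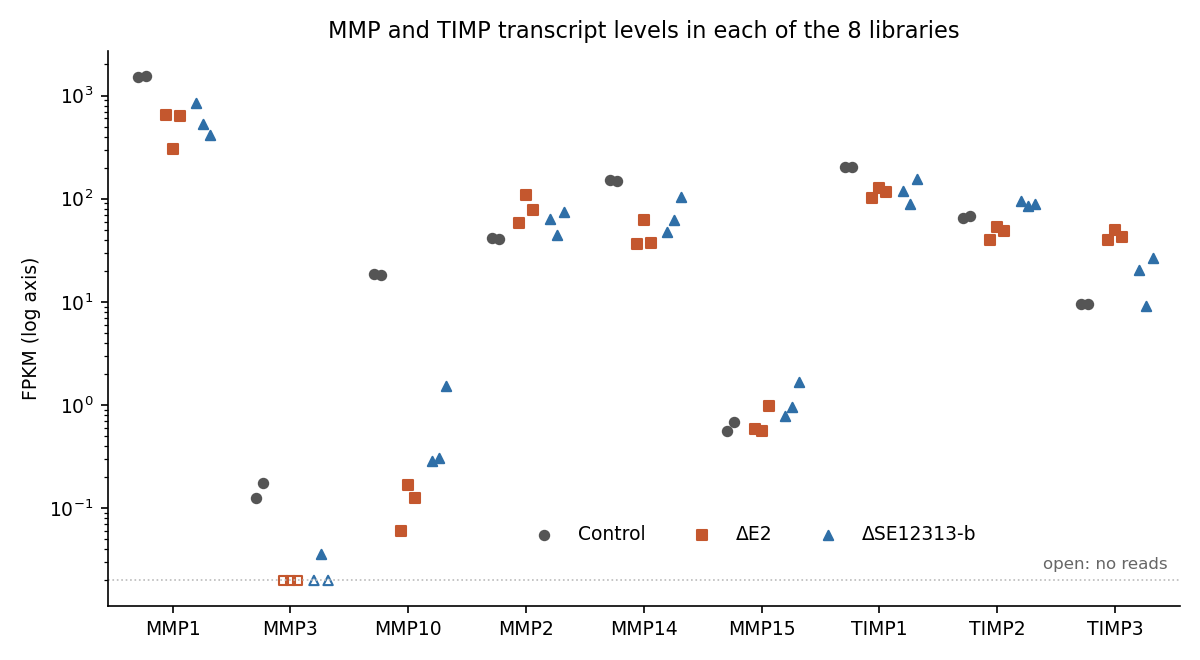
FPKM of the 9 genes (log axis) in each library, with circles for the 2 controls, squares for the 3 ΔE2 clones and triangles for the 3 ΔSE12313-b clones; open symbols on the dotted line had no reads. MMP1, MMP10 and MMP14 lay below both controls in all 6 clones, and TIMP3 lay above them in 5.

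The collagenase MMP1 had 1517 and 1548 FPKM in the controls. The ΔE2 clones 1 to 3 had 643, 305 and 639 FPKM, and the ΔSE12313-b clones 841, 533 and 414 FPKM. All 6 clones were below both controls, and clone 2 of ΔE2 and clone 3 of ΔSE12313-b were the lowest of their groups. The log2 fold change was -1.61 ± 0.38 (SE) in ΔE2, with an adjusted p of 0.00795 (limma, Benjamini-Hochberg), which is a 3.06-fold fall. In ΔSE12313-b it was -1.42 ± 0.38 with an adjusted p of 0.0123, a 2.69-fold fall. Relative to the median of all genes MMP1 changed by -1.76 and -1.70. With 1 control library the call was lost in ΔSE12313-b whichever control was left out (adjusted p 0.0641 and 0.0683), and in ΔE2 when control 2 was left out (adjusted p 0.0523), at log2 fold changes between -1.60 and -1.41. Even so, MMP1 remained the most abundant of the 9 transcripts in each clone. Its exons share 10.0% of their bases with WTAPP1 on the opposite strand, a gene with a mean of 0.068 FPKM.

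The stromelysin MMP10, which cuts a broad range of matrix proteins, showed the deepest fall of the 8 tested genes in both deletions. It had 18.7 and 18.3 FPKM in the controls, from 414 and 386 reads. The ΔE2 clones had 0.060, 0.167 and 0.126 FPKM (2, 5 and 3 reads), and the ΔSE12313-b clones 0.285, 0.309 and 1.55 FPKM (8, 8 and 43 reads). Every clone was far below both controls, and all ΔE2 clones were below all ΔSE12313-b clones. The log2 fold change was -6.45 ± 0.60 in ΔE2 (adjusted p 8.33e-05, limma with Benjamini-Hochberg) and -4.86 ± 0.60 in ΔSE12313-b (adjusted p 0.000271). These are 87.3-fold and 29.1-fold on the scale of log2(FPKM + 0.1). Counted in reads, 800 in the controls against 10 in ΔE2 gave a ratio of 161 per library read (95% exact interval 87.1 to 337), and 59 in ΔSE12313-b gave a ratio of 25.6 (19.7 to 33.97). Of these 59 reads, 43 came from clone 3, and without that clone the ratio was 62.4 (38.2 to 110), a calculation added after the data had been seen. These intervals cover counting error only. Of the 1685 windows of 75 bases in the MMP10 transcript, 187 (11.1%) match MMP3 with at most 3 mismatches. Reads from such windows could have been assigned to either gene. MMP3 itself had 3 and 4 reads in the controls and at most 1 read in any clone.

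The neighbouring stromelysin MMP3 was barely detected. Its values were 0.125 and 0.175 FPKM in the controls, from 3 and 4 reads, 0 in all ΔE2 clones, and 0, 0.036 and 0 FPKM in the ΔSE12313-b clones, from 1 read in clone 2. Both controls were thus above all clones, but at or next to the limit that a count of 0 allows (3 reads, or 0.083 to 0.131 FPKM depending on the library). MMP3 was therefore not tested and no fold change is given. Of the 1748 windows of 75 bases in the MMP3 transcript, 187 (10.7%) match MMP10 with at most 3 mismatches. The few reads of MMP3 could thus have come from MMP10, but this was not tested.

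The gelatinase MMP2 was higher in the clones, unlike MMP1 and MMP10, but it was not a DEG in either deletion. It had 42.1 and 41.2 FPKM in the controls, 58.2, 108 and 78.0 FPKM in the ΔE2 clones, and 64.1, 44.3 and 74.3 FPKM in the ΔSE12313-b clones. All 6 clones were above both controls, although ΔSE12313-b clone 2 was above the higher control by little. The log2 fold change of 0.92 ± 0.28 in ΔE2 had an adjusted p of 0.0236 (limma, Benjamini-Hochberg) but stayed under 2-fold, at 1.90-fold. The adjusted p was over 0.05 without control 1 (0.0987), control 2 (0.108) or clone 3 (0.0562), and without clone 1 MMP2 was a DEG (1.14, adjusted p 0.0105). In ΔSE12313-b the log2 fold change was 0.52 ± 0.28 (95% interval -0.13 to 1.16) with an adjusted p of 0.144. The 5 MMP2 transcripts of the table gave log2 fold changes from 0.91 to 0.92 in ΔE2.

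MMP14, the membrane-type enzyme that activates the MMP2 precursor, had 154 and 149 FPKM in the controls. The ΔE2 clones had 36.1, 62.6 and 37.4 FPKM, and the ΔSE12313-b clones 47.9, 62.6 and 103 FPKM. No clone reached the controls, and ΔE2 clone 2 and ΔSE12313-b clone 3 were the highest of their groups. The log2 fold change was -1.78 ± 0.33 in ΔE2 (3.44-fold, adjusted p 0.00274, limma with Benjamini-Hochberg) and -1.16 ± 0.33 in ΔSE12313-b (2.24-fold, adjusted p 0.0174). In ΔSE12313-b the call was lost without control 1 (adjusted p 0.0866), without control 2 (0.0792), and without clone 1, where the change of -0.91 fell short of 2-fold. Relative to the median of all genes the changes were -1.93 and -1.43.

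MMP15, another membrane-type enzyme, was expressed at a low level in all libraries. The controls had 0.558 and 0.685 FPKM, the ΔE2 clones 0.593, 0.565 and 0.988 FPKM, and the ΔSE12313-b clones 0.792, 0.956 and 1.68 FPKM, from 30 to 113 reads per library. The ΔE2 clones overlapped the controls, while the ΔSE12313-b clones were all above them. Neither difference passed the test, with log2 fold changes of 0.14 ± 0.36 in ΔE2 (95% interval -0.68 to 0.97, adjusted p 0.752, limma with Benjamini-Hochberg) and 0.72 ± 0.36 in ΔSE12313-b (-0.10 to 1.55, adjusted p 0.115). The intervals leave room for changes of nearly 2-fold or more upwards, and the sign in ΔE2 turned with each library centred on its median (-0.01).

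**Figure D2:**
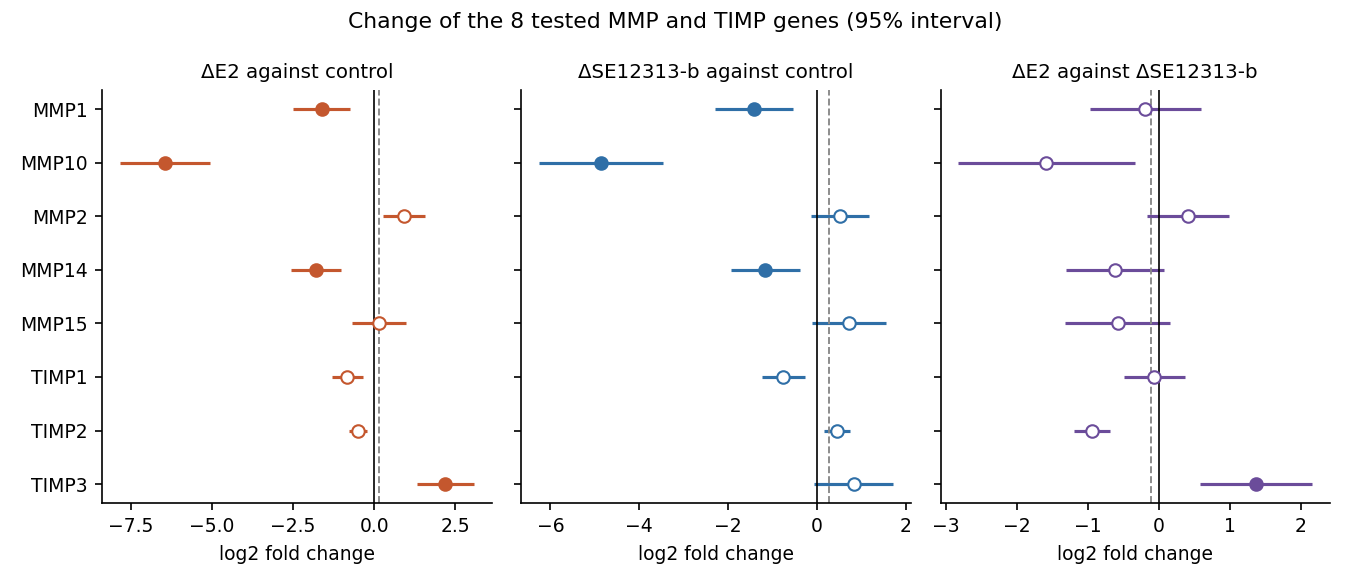
Log2 fold change with its 95% interval (limma) of the 8 tested genes for ΔE2 (left) and ΔSE12313-b (middle), each set against the controls, and for the direct comparison of both deletions (right); filled circles are DEGs, the dashed line is the median of all genes, and the horizontal axes differ in range. MMP10 had the largest change against control in both deletions (-6.45 and -4.86), and TIMP3 was the only one of the 8 that was a DEG between the deletions.

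Among the inhibitors, TIMP1, a secreted inhibitor of most soluble MMPs, had 201 FPKM in either control. It had 101, 126 and 115 FPKM in the ΔE2 clones and 118, 89.7 and 157 FPKM in the ΔSE12313-b clones. All clones were lower than the controls. The log2 fold changes were -0.82 ± 0.21 in ΔE2 (adjusted p 0.0113, limma with Benjamini-Hochberg) and -0.76 ± 0.21 in ΔSE12313-b (adjusted p 0.0141), both short of 2-fold at 1.77-fold and 1.70-fold. With 1 control library left out, the adjusted p was between 0.0642 and 0.073 in both deletions. With each library centred on its median, the change in ΔSE12313-b passed 2-fold (-1.05, adjusted p 0.00347).

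TIMP2 differed in direction between the deletions. The controls had 64.8 and 67.3 FPKM. The ΔE2 clones were lower than both, with 39.5, 53.7 and 48.2 FPKM, and the ΔSE12313-b clones were higher than both, with 95.7, 84.6 and 89.3 FPKM. The log2 fold change was -0.50 ± 0.12 in ΔE2 (adjusted p 0.0108, limma with Benjamini-Hochberg) and 0.44 ± 0.12 in ΔSE12313-b (adjusted p 0.0161), neither reaching 2-fold. With each library centred on its median, the difference in ΔSE12313-b shrank to 0.15 with an adjusted p of 0.289, so the higher level in ΔSE12313-b depended on the scaling. Without control 1 or control 2 the adjusted p was 0.0527 and 0.072 in ΔE2 and 0.0919 and 0.0657 in ΔSE12313-b, where it was also 0.0509 without clone 1. Its exons overlap those of CEP295NL on the same strand over 3.61% of their bases, a gene with a mean of 0.155 FPKM.

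TIMP3, the inhibitor held in the matrix, had 9.60 and 9.51 FPKM in the controls and 39.7, 50.01 and 43.0 FPKM in the ΔE2 clones, which were all far above the controls. The ΔSE12313-b clones were spread from control level upwards, with 20.5, 9.06 and 26.4 FPKM, and clone 2 was below both controls. The rise in ΔE2 was 2.19 ± 0.38 on the log2 scale (4.57-fold, adjusted p 0.00194, limma with Benjamini-Hochberg). In ΔSE12313-b the log2 fold change was 0.82 ± 0.38 (95% interval -0.06 to 1.71, adjusted p 0.0967). Without clone 2 it was 1.27, with an adjusted p of 0.000543, so that library decided the call in ΔSE12313-b.

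ΔE2 and ΔSE12313-b were also compared directly in the same model, where the controls enter the estimate of the spread but not the difference. TIMP3 was the only DEG of the 8, higher in ΔE2 by 1.37 ± 0.34 on the log2 scale (2.58-fold, adjusted p 0.0226, limma with Benjamini-Hochberg), where 4.23% of all genes were DEGs. The TIMP3 call was lost without any one of the ΔE2 clones (adjusted p 0.0532, 0.0584 and 0.0623 without clones 1, 2 and 3), and without ΔSE12313-b clone 2 the difference was 0.92, under 2-fold. TIMP2 was lower in ΔE2, with a log2 difference of -0.94 ± 0.11 (1.92-fold, adjusted p 0.00139), and the groups did not overlap. Whatever the size, 2 of the 8 genes had an adjusted p under 0.05, against 26.0% of all genes. MMP10 was lower in ΔE2 without overlap, with a log2 difference of -1.58 ± 0.54, at an adjusted p of 0.0649. Thus 3 of the 8 genes did not overlap between the deletions, against 40.8% of all genes. The difference was -0.19 for MMP1 (95% interval -0.97 to 0.59), -0.62 for MMP14 (-1.31 to 0.07), 0.41 for MMP2 (-0.17 to 0.98), -0.58 for MMP15 (-1.32 to 0.16) and -0.06 for TIMP1 (-0.49 to 0.37), none with an adjusted p under 0.05. These intervals still include differences of about 2-fold for MMP1, MMP14, MMP2 and MMP15.

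The order of the transcripts in the clones was not that of the controls. In ΔE2 the means ran from MMP1 with 529 ± 194 FPKM (SD, n = 3) over TIMP1 (114 ± 12.9), MMP2 (81.6 ± 25.3), TIMP2 (47.1 ± 7.13), MMP14 (45.4 ± 14.9) and TIMP3 (44.2 ± 5.25) to MMP15 (0.72 ± 0.24) and MMP10 (0.12 ± 0.054). TIMP1 and MMP2 overlapped between clones, as did TIMP2, MMP14 and TIMP3. In ΔSE12313-b MMP1 (596 ± 220 FPKM) was followed by TIMP1 (122 ± 33.7), TIMP2 (89.9 ± 5.59), MMP14 (71.2 ± 28.6), MMP2 (60.9 ± 15.3), TIMP3 (18.6 ± 8.81), MMP15 (1.14 ± 0.47) and MMP10 (0.71 ± 0.72). Here TIMP1 overlapped with TIMP2, TIMP2 with MMP14, MMP14 with MMP2, and MMP15 with MMP10.

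Summed over the 6 MMPs, the controls had 1732 and 1757 FPKM, the ΔE2 clones 738, 477 and 756 FPKM, and the ΔSE12313-b clones 954, 641 and 595 FPKM. MMP1 made up 87.6% and 88.1% of this sum in the controls, 64.0% in ΔE2 clone 2, 69.6% in ΔSE12313-b clone 3 and 83.1% to 88.1% in the other 4 clones. The sums are therefore mostly the values of MMP1. Without MMP1 the sum was 215 and 210 FPKM in the controls, 95.04 to 172 in ΔE2 and 108 to 181 in ΔSE12313-b. The 3 TIMPs summed to 275 and 278 FPKM in the controls, 180 to 230 in ΔE2 and 183 to 273 in ΔSE12313-b. Every clone was below the controls in all of these sums.

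**Figure D3:**
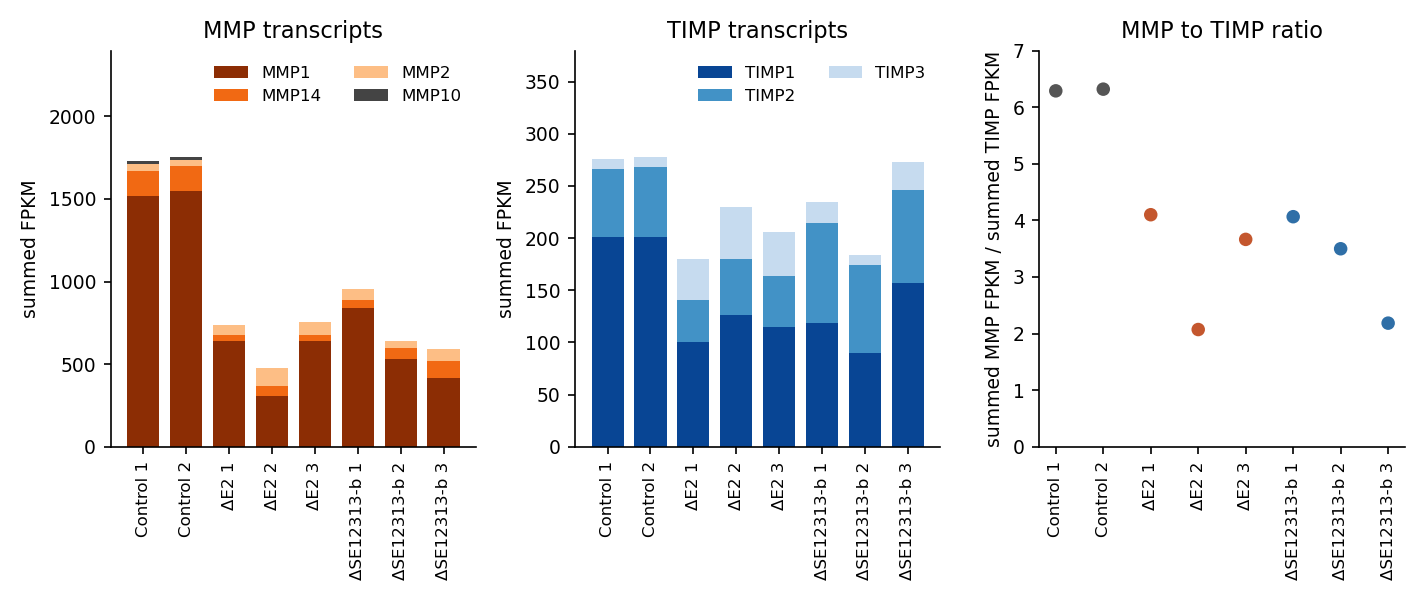
Stacked FPKM of MMP1, MMP14, MMP2 and MMP10 (left; MMP3 and MMP15 are too low to show) and of TIMP1, TIMP2 and TIMP3 (middle) in each library, and the ratio of the summed MMPs to the summed TIMPs (right). The ratio was 6.29 and 6.32 in the controls and between 2.07 and 4.10 in the 6 clones.

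The make-up of the inhibitors differed as well. TIMP3 accounted for 3.49% and 3.42% of the TIMP sum in the controls, for 20.8% to 22.1% in ΔE2 and for 4.94% to 9.68% in ΔSE12313-b. The share of TIMP2 was 23.6% and 24.2% in the controls, 21.97% to 23.4% in ΔE2 and 32.8% to 46.2% in ΔSE12313-b. TIMP1 held 73.0% and 72.4% in the controls and 48.9% to 57.6% in the clones. For the complex that activates the MMP2 precursor, the ratio of MMP14 to TIMP2 transcripts was 2.37 and 2.22 in the controls. The ΔE2 clones 1 to 3 had ratios of 0.91, 1.17 and 0.78, and the ΔSE12313-b clones 0.50, 0.74 and 1.16. The sums, shares and ratios were formed from the values above and are given as descriptions, without a test.

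The clones that stood apart over all genes were at one end of their group for several of these genes, though not always furthest from the rest. ΔE2 clone 2 and ΔSE12313-b clone 3 had the lowest MMP1 of their deletion and at the same time the highest MMP2, MMP10, MMP14, TIMP1 and TIMP3. Within ΔSE12313-b, the value furthest from the others was that of clone 1 for MMP1, and of clone 2 for MMP2 and TIMP3. The highest clone exceeded the lowest by 2.11-fold and 2.03-fold for MMP1, by 1.73-fold and 2.15-fold for MMP14, and by 2.78-fold and 5.43-fold for MMP10. For MMP10 in ΔE2 this rests on 2, 5 and 3 reads in clones 1 to 3, too few to order these clones. TIMP2 varied least in ΔSE12313-b, by 1.13-fold, and TIMP1 and TIMP3 least in ΔE2, by 1.26-fold each. SERPINB2, a plasminogen activator inhibitor that was looked at after its values were seen, was also lowest in these clones, with 24.7 FPKM against 135 and 140 in the other ΔE2 clones and 18.6 against 73.5 and 91.2 in the other ΔSE12313-b clones. Without both clones, an alternative chosen after the data had been seen, the log2 fold changes were -1.26 and -1.19 for MMP1 and -2.04 and -1.47 for MMP14 in ΔE2 and ΔSE12313-b, and 4 and 3 of the 8 genes were DEGs. Between the deletions 3 of the 8 were then DEGs, with MMP10 (-1.06, adjusted p 0.0215, limma with Benjamini-Hochberg) and TIMP2 (-1.04, adjusted p 0.00344) beside TIMP3.

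MMP1, MMP3 and MMP10 belong to a cluster of 9 MMP genes on chromosome 11 that spans 435 kb (chr11:102391239-102826463 in hg19). Of 24 genes within 1 Mb of it, 8 were tested, among them only MMP1 and MMP10 of the cluster itself. MMP1 and MMP10 were the 2 DEGs that fell there in either deletion. The other 6 genes had log2 fold changes between 0.06 and 0.73 in ΔE2, where TMEM123 (0.65, adjusted p 0.000655, limma with Benjamini-Hochberg) and DCUN1D5 (0.73, adjusted p 0.00449) were higher, and none of the 6 was a DEG. In ΔSE12313-b they lay between -0.31 (YAP1, adjusted p 0.0435) and 1.18 (CEP126, adjusted p 0.00203), and CEP126 was the only DEG (0.98, under 2-fold, without ΔSE12313-b clone 2, and 0.90 with centred libraries). BIRC2, an inhibitor of apoptosis, had 0.49 and -0.25, and the ciliary motor gene DYNC2H1 had 0.37 and 0.07, none past an adjusted p of 0.05. The 546 tested genes of 11q had a median of 0.28 in ΔE2 and -0.02 in ΔSE12313-b.

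**Figure D4:**
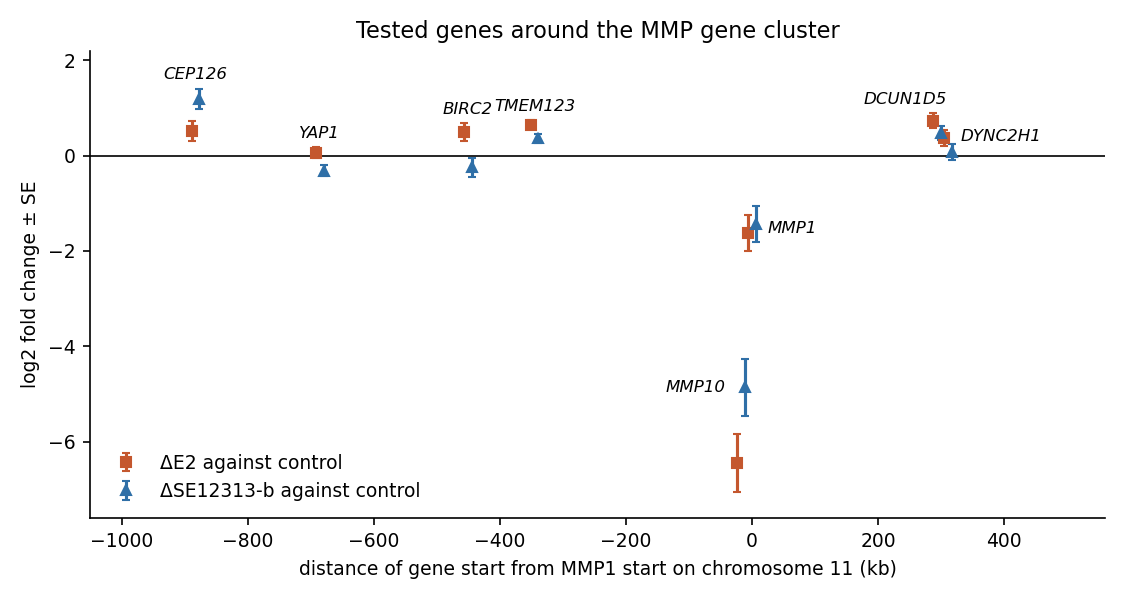
Log2 fold change ± SE (limma) of the 8 tested genes within 1 Mb of the MMP cluster against the distance of their start from that of MMP1, with squares for ΔE2 and triangles for ΔSE12313-b, both against control. MMP10 and MMP1 lie far below 0, and the other 6 genes lie between -0.31 and 1.18.

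Of 18 further MMP and TIMP genes, 4 passed the filter and 4 had no reads in any library. MMP16, a membrane-type enzyme, had 3.50 and 3.945 FPKM in the controls and between 5.04 and 6.27 FPKM in all 6 clones. Its log2 fold changes of 0.49 ± 0.10 and 0.67 ± 0.10 had adjusted p values of 0.00475 and 0.000843 (limma, Benjamini-Hochberg) and stayed under 2-fold. MMP17, which has a membrane anchor of another kind, rose in ΔSE12313-b from 0.138 and 0.164 FPKM to 0.366 to 0.570 FPKM, a log2 fold change of 1.23 ± 0.35 with an adjusted p of 0.0171. It passed the filter only through ΔSE12313-b clones 1 and 3, and its call was lost under 6 alternatives and held under 11. Among the 6 were leaving out control 2 (adjusted p 0.0634) or ΔSE12313-b clone 1 (0.0509) and centring the libraries (adjusted p 0.0475 at a change under 2-fold). MMP11 (log2 fold changes -0.76 ± 0.41 and 0.23 ± 0.41) and MMP24 (-0.41 ± 0.42 and -0.32 ± 0.42) did not pass the test. Of the 14 untested genes none exceeded 0.282 FPKM, the value of MMP7 in ΔSE12313-b clone 3. MMP7 had 3, 4 and 5 reads in the ΔSE12313-b clones and none in the other 5 libraries.

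Genes known to activate, inhibit or clear MMPs were examined as a list of 20, of which 14 were tested. In ΔE2, 2 of them were DEGs that rose and 2 were DEGs that fell, and in ΔSE12313-b 1 rose and 4 fell, where 19.6% and 22.6% of all genes were DEGs. The median log2 fold changes of the list were -0.25 and -0.62. LRP1, the endocytic receptor that clears MMPs and MMP-TIMP complexes from the cell surface, had 25.3 FPKM in both controls, 2.95 to 3.83 FPKM in ΔE2 and 4.70 to 7.14 FPKM in ΔSE12313-b. Its log2 fold changes were -2.88 ± 0.19 and -2.19 ± 0.19, with adjusted p values of 1.35e-05 and 4.32e-05 (limma, Benjamini-Hochberg). TFPI2, a secreted inhibitor of plasmin that also inhibits MMPs, fell from 2.62 and 3.31 FPKM to 0.092 to 0.392 FPKM in the 6 clones, by -3.19 ± 0.42 and -3.28 ± 0.42 (adjusted p 0.000494 and 0.000346). It passed the filter on low values through the 2 controls only. SPOCK1, a matrix proteoglycan, rose in both deletions by 1.16 ± 0.12 and 1.29 ± 0.12 (adjusted p 0.000139 and 6.22e-05).

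Other genes of this list differed between the deletions. THBS1, a matrix glycoprotein that binds MMP2 for clearance by LRP1, rose in ΔE2 from 103 and 104 FPKM to 219 to 296 FPKM (log2 fold change 1.34 ± 0.15, adjusted p 0.000245, limma with Benjamini-Hochberg). It had 108 to 140 FPKM in ΔSE12313-b (0.19 ± 0.15, adjusted p 0.309), and the direct difference of 1.15 ± 0.14 had an adjusted p of 0.00149. SERPINE2, a secreted inhibitor of plasminogen activators and thrombin, fell in ΔSE12313-b by 2.03 on the log2 scale (adjusted p 0.000654) and had -0.71 ± 0.30 in ΔE2 (adjusted p 0.0769), with a direct difference of 1.33 ± 0.27 (adjusted p 0.00973). The tissue plasminogen activator PLAT was named after its values had been seen, because it moved in opposite directions. It had 112 and 109 FPKM in the controls, 179 to 218 FPKM in ΔE2 and 47.7 to 71.9 FPKM in ΔSE12313-b, and the direct difference was 1.83 ± 0.15 (adjusted p 0.000426). FURIN, the convertase that cleaves the precursor of MMP14, had log2 fold changes of 0.00 ± 0.14 and 0.06 ± 0.14.

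**Figure D5:**
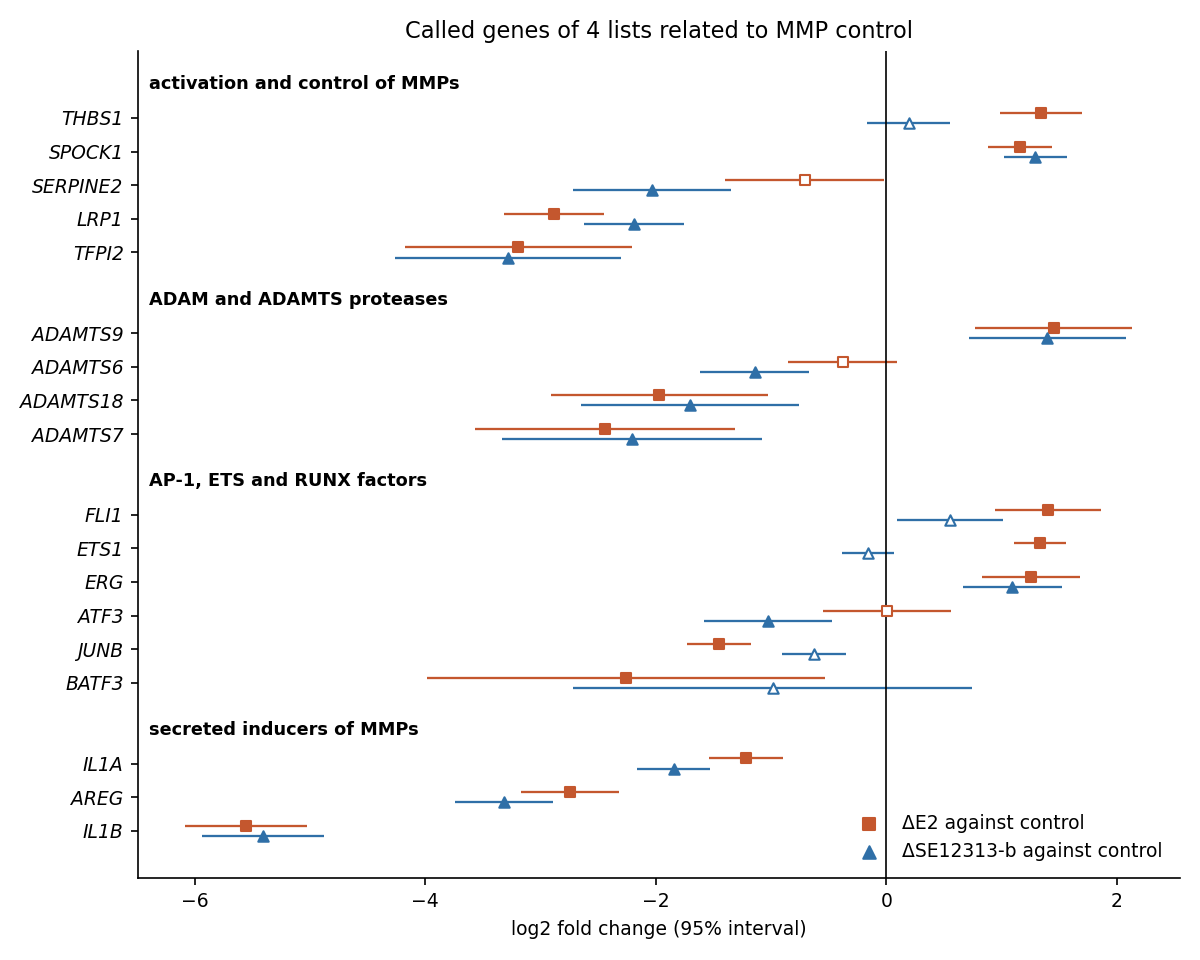
Log2 fold change with its 95% interval (limma) of genes from 4 lists around MMPs that were DEGs in at least 1 deletion; squares are ΔE2 and triangles ΔSE12313-b, both against control, and open symbols did not pass both thresholds. IL1B had the largest fall of the genes shown (-5.55 and -5.41), and the ETS factors FLI1 and ETS1 have filled symbols for ΔE2 (1.40 and 1.33) and open ones for ΔSE12313-b (0.56 and -0.16).

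Of 20 ADAM and ADAMTS proteases, relatives of the MMPs with a disintegrin domain, 12 were tested, and the median log2 fold changes were -0.18 and -0.49. ADAMTS9 rose in both deletions, by 1.45 ± 0.29 and 1.40 ± 0.29 (adjusted p 0.00406 and 0.00421, limma with Benjamini-Hochberg). ADAMTS7, which cuts cartilage oligomeric matrix protein, fell by -2.44 ± 0.49 and -2.20 ± 0.49 (adjusted p 0.0038 and 0.00529), and ADAMTS18, which passed the filter through the 2 controls only, fell by -1.97 ± 0.41 and -1.70 ± 0.41 (adjusted p 0.00453 and 0.00777). ADAMTS6 fell in ΔSE12313-b (-1.14 ± 0.20, adjusted p 0.00185), though by under 2-fold without clone 3 (-0.94). In ΔE2 it was also lower in all clones than in the controls (-0.38 ± 0.20, adjusted p 0.153), and the direct difference was 0.76 ± 0.18 (adjusted p 0.0193).

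Of 11 genes for secreted factors that are known to induce MMP genes, 7 were tested and 3 were DEGs that fell in both deletions, where 8.36% and 7.83% of all genes were falling DEGs. None was a DEG that rose, although the growth factor FGF2 was higher in all ΔE2 clones (0.71 ± 0.17, adjusted p 0.00974, limma with Benjamini-Hochberg). The median log2 fold changes were -0.71 and -0.465. IL1B, the inducer of MMP1 and MMP3 in many cell types, had 158 and 163 FPKM in the controls, 2.76 to 3.65 FPKM in ΔE2 and 2.76 to 4.99 FPKM in ΔSE12313-b. All 6 clones were far below the controls, and the log2 fold changes of -5.55 ± 0.23 and -5.41 ± 0.23 had adjusted p values of 1.13e-06 and 1.28e-06 (limma, Benjamini-Hochberg). IL1A fell by -1.22 ± 0.14 and -1.84 ± 0.14 (adjusted p 0.000219 and 2.12e-05), and AREG, a ligand of the EGF receptor, by -2.75 ± 0.18 and -3.32 ± 0.18 (adjusted p 1.55e-05 and 4.63e-06).

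Among 21 transcription factors of the AP-1, ETS and RUNX families, whose sites are common in MMP promoters, 18 were tested, with medians of -0.01 and -0.05. In ΔE2, 3 rose and 2 fell, and in ΔSE12313-b 1 rose and 1 fell, where 19.6% and 22.6% of all genes were DEGs. The ETS factor ERG, which is specific to endothelial and some blood cells, rose in both deletions, from 7.51 and 7.85 FPKM to 15.9 to 23.2 FPKM in ΔE2 and 14.4 to 19.9 FPKM in ΔSE12313-b (log2 fold changes 1.25 ± 0.19 and 1.09 ± 0.19, adjusted p 0.000836 and 0.00141, limma with Benjamini-Hochberg). In ΔSE12313-b the change of ERG was under 2-fold without clone 3 (0.96) and with centred libraries (0.80). ETS1 rose in ΔE2 (1.33 ± 0.099, adjusted p 2.61e-05) and had -0.16 ± 0.099 in ΔSE12313-b, a direct difference of 1.49 ± 0.088 (adjusted p 0.00013). FLI1 rose in ΔE2 by 1.40 ± 0.20 (adjusted p 0.000677), and in ΔSE12313-b it was higher by 0.56 ± 0.20 (adjusted p 0.0411), under 2-fold. Of the AP-1 factors, JUNB (-1.45 ± 0.12, adjusted p 4.51e-05) and BATF3 (-2.26 ± 0.75, adjusted p 0.0339) fell in ΔE2. JUNB was also lower in ΔSE12313-b (-0.63 ± 0.12, adjusted p 0.00259). BATF3 had 0.054, 0.718 and 0.075 FPKM in the ΔE2 clones against 1.13 and 1.36 in the controls, and its call was lost without control 1, control 2, clone 1 or clone 3 (adjusted p 0.112, 0.147, 0.0913 and 0.0954). ATF3 fell in ΔSE12313-b (-1.03 ± 0.24, adjusted p 0.00673), a call lost without control 2 (-0.83, adjusted p 0.067) or clone 3 (-0.93). FOSL1 had 54.1 to 125 FPKM over the 6 clones and 93.4 and 98.9 FPKM in the controls, and did not pass the test in either deletion.

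The genes whose levels ran most like those of the called members were found by Pearson's r of log2(FPKM + 0.1) over the 8 libraries, which fall into 3 groups, so that any gene with similar group means scores high. For MMP1 these were RPTOR (r = 0.993), FSTL3 (0.988) and POMT1 (0.974), and for MMP10 they were STC1 (0.994), EIF1 (0.994) and WARS (0.992). TPP1 (0.993), STYXL1 (0.991) and PTPRM (0.988) followed MMP14, and AES (0.996) and CCDC80 (0.994) followed TIMP3. None of them lies on the chromosome of the gene it follows.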

How the data were processed

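RNA from 8 EA.hy926 libraries was analysed (2 control, 3 ΔE2 and 3 ΔSE12313-b). The authors trimmed reads with Trim Galore 0.4.4 and mapped them to GRCh37 (hg19) with STAR 2.5.4b, as the submitters' processing notes and the paper state, and deposited 1 table of FPKM for 65572 RefSeq transcripts. For its own test the paper assigned reads with featureCounts to Gencode features, whereas the deposited table holds RefSeq transcripts. The tool behind that table and its handling of strands are not given in the sources used here, although the library kit marks strand. The groups were taken from the sample labels.

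The deposited FPKM were used as they are. Each value times its transcript length fell on whole multiples of 1 read, for 100% of the values checked within 0.1 read, and the reads recovered in this way gave the depth (12067553 to 19101120 reads per library). Because the values are FPKM, limma 3.58.1 in R 4.3.3 was run on log2(FPKM + 0.1) in place of a count test (3 groups in 1 model, empirical Bayes with a trend, two-sided). The 13790 genes that reached 0.5 FPKM in 2 or more libraries entered the test, with Benjamini-Hochberg adjustment over all of them, and DEGs were called at an adjusted p under 0.05 and 2-fold or more. Fold changes are on the scale of log2(FPKM + 0.1), where the pseudocount draws low values together, and they average log values, so that they can differ from ratios of mean FPKM or reads. The 3 reads taken as the limit of a count of 0 and the exact intervals cover counting error only. The steps were tested on simulated reads with the same spread in every group. This does not cover the unequal spread of controls and clones in the real libraries.

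The members and lists were chosen with earlier results of these data known. All 9 members are named, with the other MMP and TIMP genes that passed the filter, at most 4 DEGs per list, deletion and direction, the tested genes within 1 Mb of the MMP cluster, and 3 genes most correlated with each called member. From these, 1 list gene and 1 correlated gene are not reported here, while the counts and medians of the lists cover all list genes. Alternatives were pseudocounts of 0.01 and 1, no filter on low values, a mean FPKM of at least 1, libraries centred on their median, a replicate block, only the groups compared, voom on the recovered reads, every transcript line, a threshold of 1.5-fold, and each library left out in turn. Leaving out ΔE2 clone 2 together with ΔSE12313-b clone 3 was added after the data had been seen. Promoter windows came from RefSeq, and shared sequence was searched in the Gencode transcripts of GRCh37.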

Additional observations from a re-analysis of the deposited data

Results flagged for a closer look

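Levels differed between the ΔE2 and ΔSE12313-b clones by the direct test for 2 of the tested MMP and TIMP genes. For TIMP2 the log2 fold change of ΔE2 against ΔSE12313-b was -0.94 (adjusted p 0.00139, limma with Benjamini-Hochberg), with all 3 ΔE2 clones below and all 3 ΔSE12313-b clones above the controls. With libraries centred, TIMP2 had 0.15 in ΔSE12313-b against the controls (adjusted p 0.289) and -0.81 between the deletions (adjusted p 0.00221). For TIMP3 the direct difference was 1.37 (adjusted p 0.0226), with all 3 ΔE2 clones above all 3 ΔSE12313-b clones. The TIMP3 call was lost without any one of the ΔE2 clones, and without ΔSE12313-b clone 2 the difference was under 2-fold. No group has 4 or more libraries, so single libraries were not screened as outliers.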

How the results depend on the processing

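MMP10 and MMP14 in ΔE2, TIMP3 in ΔE2 and MMP10 in ΔSE12313-b kept their direction and their call under all 18 alternatives run for each. In ΔE2 the 2697 DEGs became 1718 with a pseudocount of 1, 5054 at 1.5-fold and 7364 of 40219 transcript lines when every line was tested, and in ΔSE12313-b the 3112 became 2004, 5802 and 8673. Between the deletions the 583 became 240, 1631 and 1649. With libraries centred, ΔE2 had 1170 DEGs that rose and 1464 that fell (1544 and 1153 before), and ΔSE12313-b had 1201 and 1570 (2032 and 1080 before). With 1 library left out, DEGs ranged from 2364 to 2880 in ΔE2, from 2767 to 3186 in ΔSE12313-b and from 478 to 669 between the deletions, and called members from 3 to 5, from 1 to 4 and from 0 to 1. The 3 called members of ΔSE12313-b became 1 without control 1 or control 2. The 1 called member between the deletions became 2 with a pseudocount of 0.01, with every transcript line and at 1.5-fold, 3 without ΔE2 clone 2 and ΔSE12313-b clone 3, and 0 without ΔE2 clone 1, ΔE2 clone 3 or ΔSE12313-b clone 2. The cause was not tested for any of these.

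The log2 fold change turned sign in results that had not passed the test. With libraries centred these were -0.152 for ATF3, -0.0134 for MMP15 and -0.101 for YAP1 in ΔE2, -0.213 for DYNC2H1, -0.0558 for MMP11 and -0.0941 for THBS1 in ΔSE12313-b, and 0.068 for TIMP1 between the deletions. ATF3 in ΔE2 was -0.0193 with voom. TIMP1 between the deletions was 0.0628 without ΔE2 clone 2 and ΔSE12313-b clone 3. With 1 library left out, ATF3 ranged from -0.226 to 0.203 and MMP15 from -0.0823 to 0.273 in ΔE2, DYNC2H1 from -0.0744 to 0.186 in ΔSE12313-b, and MMP1 from -0.42 to 0.168 and TIMP1 from -0.264 to 0.14 between the deletions.

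Libraries of the same replicate number correlated between -0.08 and 0.107 in their deviations from the group means, and those of different numbers between -0.075 and 0.137. With so few libraries per group, these correlations cannot tell whether a number marks a shared batch or day. With a replicate block 2530, 2962 and 523 genes were DEGs in ΔE2, ΔSE12313-b and between the deletions, with 4, 3 and 1 called members. MMP15 (-0.114) and ATF3 (-0.0627) in ΔE2 turned sign under the block, and MMP2 in ΔE2 had an adjusted p of 0.0733.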
